A study of Mus musculus with 14 samples.

Results

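The nuclear genes of the mitochondrial respiratory chain were examined in islet cells sorted on acidic beta-galactosidase activity. Members were the rows of the deposited count table whose symbol starts as the subunit genes of complexes I to V do: Nduf with a, b, c, s or v and a digit, Sdha to Sdhd, Uqcr, Cox4 to Cox8, and Atp5. Rows named as pseudogenes (ending in -ps) were left out, 6 in all. This gave 84 members of 52459 genes, 35 in complex I, 4 in complex II, 8 in complex III, 20 in complex IV and 17 in complex V. Ndufa4 and Ndufa4l2 were placed in complex IV, where the Ndufa4 protein is now known to sit. The rule goes by symbol and took in Atp5s and Atp5sl, which are known as factors of the chain and are not among its structural subunits. Atp5sl is the older symbol of Dmac2, an assembly factor of complex I, and was counted in complex V by its symbol only. The cells came from dispersed pancreatic islets of male C57BL/6J mice, an inbred strain, aged 7 months in both groups. There were 7 libraries of cells with the enzyme activity (positive) and 7 of cells without it (negative), numbered 1 to 7 in each group. The labels do not say how many animals a library holds or whether animals were pooled, so p-values measure only the spread between these libraries.

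The respiratory chain passes electrons from NADH through complex I, or from succinate through complex II, by way of ubiquinone to complex III, cytochrome c and complex IV, where oxygen is reduced. Complexes I, III and IV pump protons across the inner mitochondrial membrane, and complex V, the ATP synthase, uses their return to make ATP. In beta cells a rise in mitochondrial ATP after a meal closes potassium channels and starts insulin release. A few subunits are encoded by mitochondrial DNA, and the 84 members come from the nucleus.

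Total counts were 11060144 to 23045934 reads in negative and 15585779 to 24577025 in positive libraries. The sorted cells expressed beta cell markers throughout, with a summed level of 12 genes of 103625.6 to 154711.49 CPM, the reads of a gene relative to the TMM-scaled library total, in negative and 99558.94 to 129834.5 CPM in positive libraries. Of these 12 genes 1 fell without the block (Trpm5, also without the libraries numbered 6 and 7) and 7 with it, and all 12 had a log2 fold change below 0. Markers of other cells moved with the sort: 14 of 14 macrophage genes rose, with a summed level of 18.07 to 26.54 CPM in negative and 88.94 to 782.32 CPM in positive libraries. Endothelial genes rose in 13 of 13 tested cases, from 4.59 to 71.25 CPM in sum to 403.37 to 1350.59 CPM, with Cldn5 at 0 in every negative library. Of the other islet hormone lists, the delta cell genes Sst (log2 fold change 2.58, adjusted p = 0.00562) and Hhex (2.50, adjusted p = 0.00202) rose in 7 of 7 pairs, and the 6 other tested endocrine genes were not called. Pericyte and smooth muscle genes rose in 7 of 10 tested cases. Of 12 acinar genes 5 fell, and 11 did with the replicate number as a block. Positive libraries 6 and 7 held the highest macrophage and endothelial sums. With the libraries numbered 6 and 7 left out, the calls were 14 macrophage, 13 endothelial, 5 pericyte, 2 endocrine and 0 acinar genes. Calls of members are given with and without these libraries. In bulk RNA, fewer cells of a type and less RNA per cell cannot be told apart, and the part of these cell types in the results below was not tested.

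Respiratory chain genes differed little between the groups. Of the 84 members 79 passed the filter on low counts, and 3 of these were called by edgeR's quasi-likelihood test at an adjusted p below 0.05. Atp5b, the catalytic beta subunit of the ATP synthase, and Cox5a, a subunit of cytochrome c oxidase, rose in positive libraries, and Atp5l, the g subunit in the membrane part of the ATP synthase, fell. The 2 higher calls stand against a background of 6.4% of 16350 tested genes called higher, and the 1 lower call against 1.63% called lower. With the replicate number as a block, which compares the libraries of the same number, 5 members rose and 3 fell, against 11.8% and 7.77% of all genes. Without the libraries numbered 6 and 7, none was called in either direction without the block, where 3.28% of genes were called higher and 0.275% lower. At an unadjusted p below 0.05 there were then 2 members higher and 2 lower. With both the block and these libraries left out, 1 member was called higher (Cox5a) and 1 lower (Atp5l), against 6.36% and 3.14% of genes. The 5 members that were called only with the block (Uqcrfs1, Uqcrq, Cox4i1, Ndufa7 and Atp5s) then had adjusted p of 0.165, 0.0818, 0.209, 0.107 and 0.122 in that order.

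**Figure D1:**
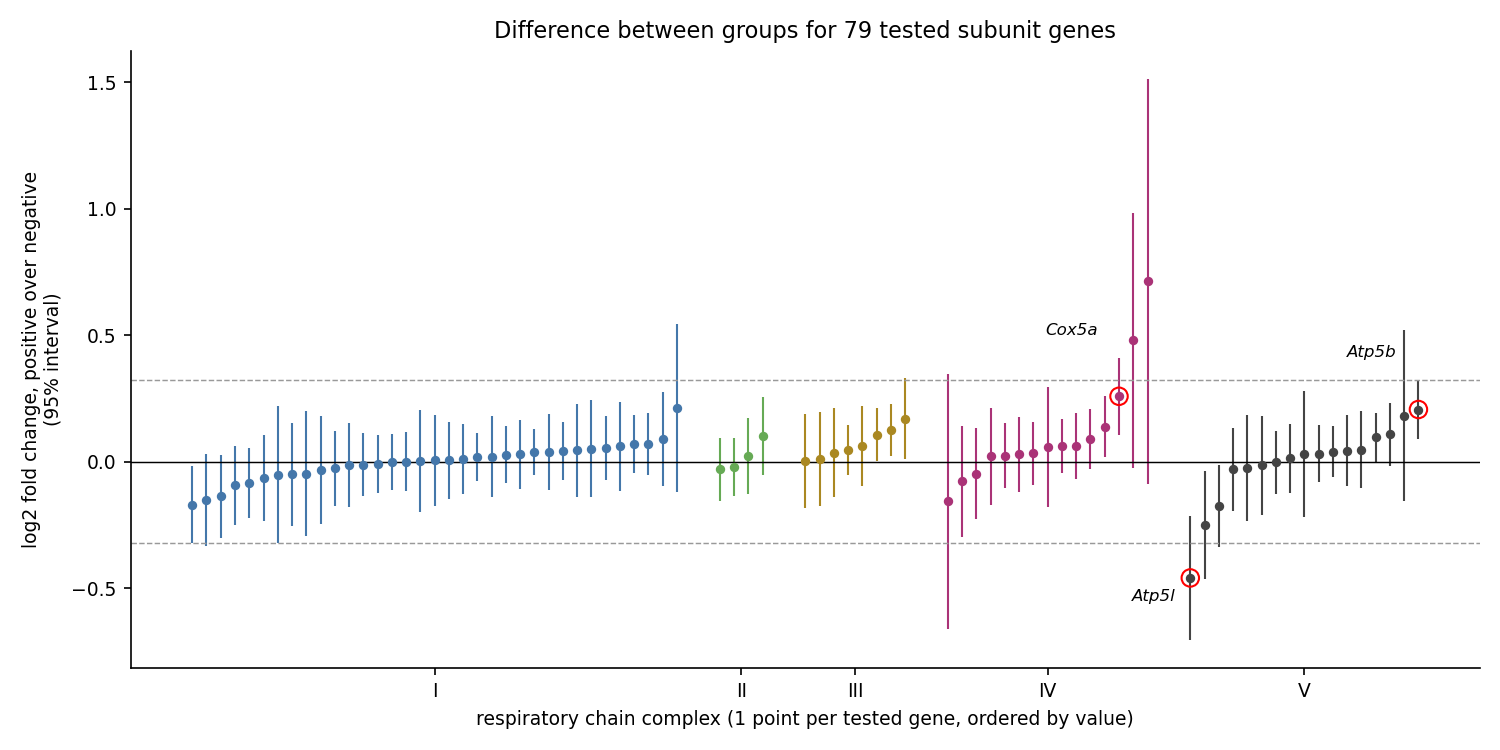
Each point is 1 of the 79 tested member genes, ordered by value within its complex on the horizontal axis. The vertical axis gives the log2 fold change of positive over negative libraries with its 95% interval, dashed lines mark a 1.25-fold difference either way, and red circles mark the 3 called genes. Most points lie close to 0, and Atp5l at −0.46 is the lowest of all.

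The differences were small in size as well as in number. The log2 fold change of 76 of the 79 tested members (96.2%) was under 1.25-fold in either direction, against 80.9% of all genes tested. Between the lower and upper quartile, members ranged from −0.02 to 0.06 on the log2 scale, and that of all genes from −0.12 to 0.12. The members were also measured more closely, with a median standard error of 0.07 against 0.11, and a median level of 37.4 CPM against 17.53 CPM. For 66 members the whole 95% interval of the difference lay within 1.25-fold, which bounds the size of the difference the data allow. Log2 fold changes were above 0 in 52 members (65.8%), against 50.1% of all genes, and their median was 0.02, against 0.00.

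Levels of the whole chain also varied between libraries of 1 group. Taken as the median over members of the log2 difference from the negative mean, negative 4 was the lowest negative library in complexes I, III, IV and V, and negative 3 in complex II. For complex I this value was −0.11 in negative 3, −0.17 in negative 4 and 0.11 in negative 1. Positive 3 and 4 were also the lowest positive libraries in complex I, at −0.05 and −0.07. All members together took 0.52 ± 0.03% of the counts in the negative group and 0.55 ± 0.01% in the positive group (SD, n = 7 each). The positive share was the higher in 7 of 7 pairs, and the summed TMM-scaled level in 6 of 7. The median over the 79 tested members was above 0 in only 3 of 7 pairs, from −0.04 to 0.11. Mean sums were 5232.4 CPM in negative and 5442.2 CPM in positive libraries. Of these sums, Atp5a1 made up 610.9 and 658.7 CPM, and Atp5b 610.3 and 704.2 CPM.

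**Figure D2:**
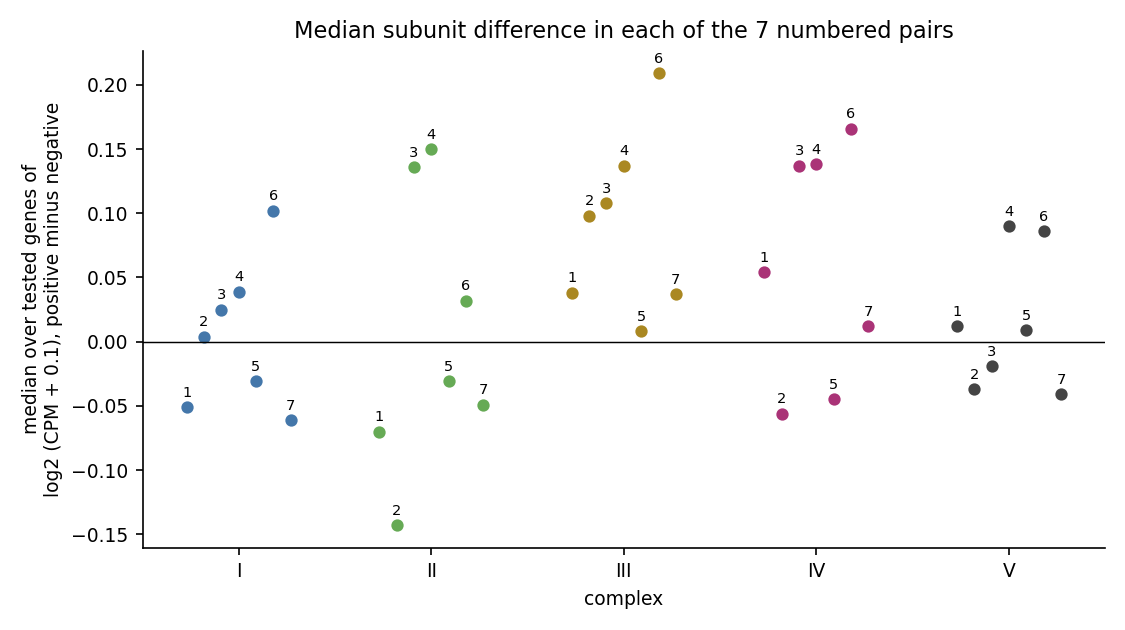
Each point is 1 numbered pair of libraries, set by complex on the horizontal axis, and the vertical axis gives the median over the tested members of a complex of the difference in log2 (CPM + 0.1), positive minus negative, within that pair. Complex III lies above 0 in 7 of 7 pairs, and complexes I and V lie above 0 in 4 of 7.

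In complex I, which oxidizes NADH, none of 35 tested members was called without the block. Their log2 fold changes ran from −0.17 to 0.21 with a median of 0.01, and 20 of 35 were above 0. Among the 7 core subunits, which carry the flavin and the iron-sulphur clusters, the highest was Ndufs8 at 0.07, and the flavin-binding Ndufv1 stood at 0.03. Accessory subunits, 28 in number, held both ends of the range. The highest, Ndufb4, had the lowest level of the complex, with means of 1.26 ± 0.26 and 1.46 ± 0.15 CPM and a 95% interval of its log2 fold change from −0.12 to 0.54. For 32 of the 35 genes the interval stayed within 1.25-fold. Summed over the complex, levels were 1553.3 ± 98.0 CPM in negative and 1550.5 ± 62.9 CPM in positive libraries, with the positive library higher in 3 of 7 pairs.

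Ndufa7, an accessory subunit of the matrix arm, was the complex I gene called with the block. It measured 23.37 CPM in the lowest, 26.4 CPM in the median and 31.36 CPM in the highest negative library. In positive libraries it measured 22.01, 24.3 and 26.83 CPM. The groups overlapped, and within every one of the 7 pairs Ndufa7 was the lower in the positive library. Its log2 fold change was −0.17 ± 0.07 (SE), with an adjusted p of 0.186 in edgeR without the block and 0.0358 with it. Ndufb6, in the membrane arm, was lower in 7 of 7 pairs too, with an adjusted p of 0.328, and of 0.0556 with the block. Lower values in all 7 pairs were seen in 4 members (Ndufa7, Ndufb6, Atp5l and Atp5s) and higher values in 5, against 6.93% and 11.1% of all tested genes.

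Complex I also held one of the members with the highest level per length. Ndufa1, a small membrane-arm subunit, stood at 146.5 ± 16.6 CPM per kb of exon over all 14 libraries. It ran from 52.04 to 71.88 CPM in negative and from 55.19 to 78.03 CPM in positive libraries, with medians of 60.96 and 59.69 CPM. The groups overlapped nearly completely, and the log2 fold change was 0.01 ± 0.08.

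Complex II, succinate dehydrogenase, is encoded wholly by nuclear genes and links the chain to the TCA cycle. None of its 4 genes was called, and all 4 had 95% intervals within 1.25-fold. Sdha, the flavin subunit that oxidizes succinate, ran from 254.0 to 287.3 CPM in negative and 249.5 to 298.5 CPM in positive libraries, with medians of 273.6 and 265.5 CPM. Its log2 fold change was −0.02 ± 0.05 (adjusted p = 0.866), and the groups overlapped. Sdhb, the iron-sulphur subunit, ran from 34.76 to 49.27 CPM with a median of 42.92 CPM in negative and from 42.31 to 48.43 CPM with a median of 45.03 CPM in positive libraries. The positive values of Sdhb lay inside the negative range (log2 fold change 0.10 ± 0.07, adjusted p = 0.463). Of the membrane anchors, Sdhc had medians of 57.15 and 57.13 CPM within 47.79 to 64.83 CPM and 51.96 to 62.18 CPM (0.02 ± 0.07, adjusted p = 0.894). Sdhd had medians of 72.52 and 72.3 CPM within 69.69 to 84.58 CPM and 66.22 to 82.77 CPM (−0.03 ± 0.06, adjusted p = 0.825). Both anchors overlapped between groups. Per length, Sdha stood at 66.2 and Sdhd at 59.6 CPM per kb, above Sdhb at 19.4 and Sdhc at 17.3 CPM per kb.

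All 8 members of complex III, which hands electrons from ubiquinol to cytochrome c, had a log2 fold change above 0, from 0.00 to 0.17 with a median of 0.05, where 50.1% of all genes were above 0. Leaving out the libraries numbered 6 and 7 gave a median of 0.05, with Uqcrb (−0.05) and Uqcr11 (−0.003) below 0. None was called without the block, and 2 of 8 were called higher with it, where 11.8% of all genes were. The median over the complex was above 0 in 7 of 7 pairs, from 0.01 in pair 5 to 0.21 in pair 6. Summed levels were 475.9 ± 22.4 CPM in negative and 508.5 ± 21.5 CPM in positive libraries, again higher in 7 of 7 pairs. Pair 6, with the largest difference, is also the pair whose positive library had the highest macrophage sum (782.32 CPM). In pair 7, whose positive library had a macrophage sum of 546.86 CPM, the difference was 0.04. In pair 4, with 124.78 CPM, it was 0.14. The part of macrophages in complex III was not tested.

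Uqcrfs1, the Rieske iron-sulphur protein that takes electrons from ubiquinol, measured 58.37 to 62.72 CPM with a median of 59.69 CPM in negative libraries. In positive libraries it measured 61.8 to 73.4 CPM with a median of 65.88 CPM. The groups overlapped only between 61.8 and 62.72 CPM, and 7 of 7 pairs were higher. Its log2 fold change was 0.12 ± 0.05, with an adjusted p of 0.14, and of 0.0421 with the block. Uqcrq, a small subunit near cytochrome b, had the highest level per length of complex III, at 68.1 CPM per kb. It ran from 99.98 to 131.1 CPM with a median of 114.5 CPM in negative, and from 113.2 to 150.6 CPM with a median of 139.2 CPM in positive libraries. These ranges overlapped, while each positive library exceeded the negative library of its number. The log2 fold change of Uqcrq was 0.17 ± 0.08, with an adjusted p of 0.206, and of 0.0171 with the block. The core protein Uqcrc1 missed the threshold in both fits (0.11 ± 0.05, adjusted p = 0.226 and 0.094). The other 5 genes, Uqcrc2, Uqcrb, Uqcrh, Uqcr10 and Uqcr11, lay between 0.00 and 0.06.

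Complex IV, cytochrome c oxidase, has 12 ubiquitous subunits and relatives and 8 isoforms known from other tissues among the members. Of the 15 that were tested, 1 rose and none fell, where 6.4% of all genes were called higher and 1.63% lower. A log2 fold change above 0 was seen in 12 of the 15, against 50.1% of all genes. The ubiquitous genes had a median log2 fold change of 0.05 between −0.08 and 0.26. Summed over the complex, levels were 761.4 ± 50.9 CPM in negative and 792.1 ± 24.7 CPM in positive libraries, higher in 5 of 7 pairs.

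Cox5a, a subunit on the matrix side of the oxidase, lies on chromosome 9, at 57521274 to 57532426 of GRCm38 (plus strand). An exon of the gene Gm26631 on the other strand overlaps its exons. Of all 50-base words in the exons of Cox5a, 9.1% also occur in other genes, and 1.0% in genes elsewhere. The strand setting of the counting was not given, so reads of this overlap cannot be told apart. Cox5a measured 20.13 CPM in the lowest, 23.99 CPM in the median and 26.92 CPM in the highest negative library. In positive libraries these values were 25.81, 27.86 and 30.61 CPM. The groups overlapped between 25.81 and 26.92 CPM, and every pair was higher. The log2 fold change was 0.26 ± 0.07 (means 23.5 ± 2.5 and 28.2 ± 1.9 CPM, SD, n = 7 each; adjusted p = 0.035, and 0.0141 with the block). The call of Cox5a was lost in 11 of 14 fits that left out 1 library, with adjusted p from 0.0515 to 0.112. It held without negative 7, positive 3 or positive 4. Without the libraries numbered 6 and 7 the log2 fold change was 0.25 (adjusted p = 0.167), and 0.0244 was its adjusted p with the block.

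Cox4i1, the ubiquitous form of subunit 4, was called with the block only. It ran from 140.3 to 172.6 CPM with a median of 147.8 CPM in negative, and from 158.7 to 182.4 CPM with a median of 166.7 CPM in positive libraries. The groups overlapped and 7 of 7 pairs were higher, with a log2 fold change of 0.14 ± 0.06 (adjusted p = 0.169, and 0.0334 with the block). Cox8a, the ubiquitous form of subunit 8, had the highest level per length of the complex, at 185.9 CPM per kb. It ran from 100.7 to 123.8 CPM (median 110.0 CPM) in negative and from 110.2 to 125.5 CPM (median 117.0 CPM) in positive libraries. These groups overlapped, and Cox8a was not called (0.09 ± 0.06, adjusted p = 0.386).

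**Figure D3:**
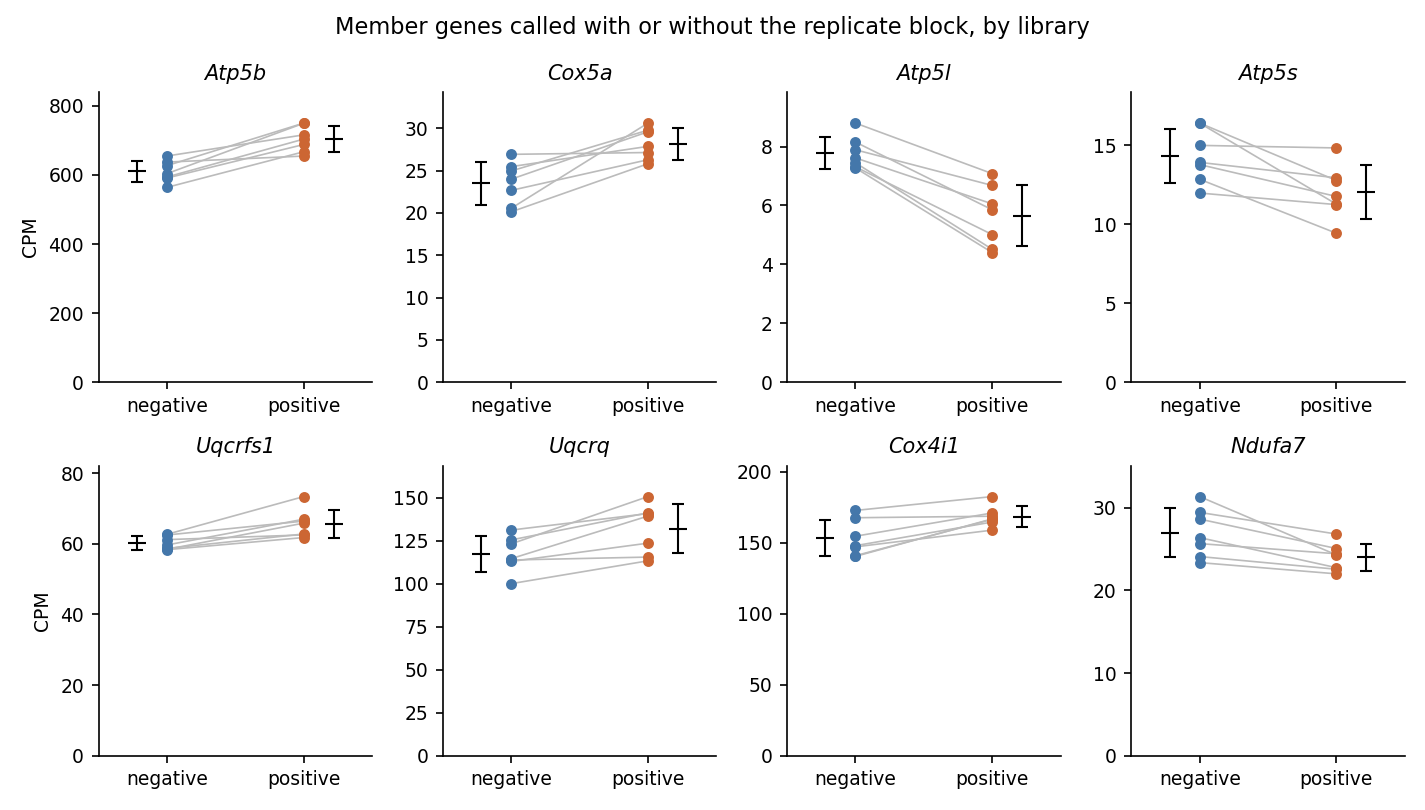
CPM in each of the 7 negative and 7 positive libraries of the 8 member genes called with or without the replicate block; gray lines join libraries of the same number, and bars give the mean ± SD. The groups of Atp5l do not overlap, with 4.40 to 7.08 CPM in positive and 7.27 to 8.80 CPM in negative libraries.

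Complex V, the ATP synthase, held 2 of the 3 called genes, in opposite directions. These are 1 higher and 1 lower of 17, where 6.4% and 1.63% of all genes were called. Its 17 members had log2 fold changes from −0.46 to 0.21 with a median of 0.03, and 10 were above 0. Summed levels were 1994.6 ± 67.6 CPM in negative and 2145.5 ± 60.4 CPM in positive libraries, higher in 6 of 7 pairs, and Atp5a1 and Atp5b made up most of that sum. By part of the enzyme, the median was 0.03 for the 5 genes of the F1 head and rotor stalk, 0.10 for the 3 genes of the c ring, 0.03 for the 4 of the peripheral stalk and −0.03 for the 3 small membrane subunits.

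Atp5b, whose protein binds ADP and makes ATP in the F1 head, lies on chromosome 10, at 128083273 to 128090391 of GRCm38 (plus strand), with no other gene on its exons. It measured 564.0 CPM in the lowest, 603.8 CPM in the median and 654.8 CPM in the highest negative library. The positive libraries had 654.6, 703.7 and 750.1 CPM. The lowest positive library, number 2, lay just under the highest negative one, number 1, and every pair was higher. The log2 fold change was 0.21 ± 0.06 with a 95% interval of 0.09 to 0.32 (means 610 ± 31.1 and 704 ± 37.4 CPM, SD, n = 7 each; adjusted p = 0.0295, and 0.0122 with the block). Leaving out single libraries ended the call in 9 of 14 fits, with adjusted p from 0.06 to 0.117, and it held without negative 1, negative 7, positive 2, positive 3 or positive 4. Without the libraries numbered 6 and 7 the log2 fold change of Atp5b was 0.17 (adjusted p = 0.334, and 0.10 with the block).

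Atp5a1, the alpha subunit that alternates with the beta subunit in the head, had the highest level per length of all members, at 202.5 CPM per kb, followed within complex V by Atp5b at 155.1 CPM per kb. It ran from 585.2 to 649.4 CPM (median 610.3 CPM) in negative and from 567.4 to 700.0 CPM (median 678.7 CPM) in positive libraries. The groups overlapped, and Atp5a1 was not called (0.11 ± 0.06, adjusted p = 0.309, and 0.152 with the block). The rotor stalk genes Atp5c1, Atp5d and Atp5e lay between −0.03 and 0.03 on the log2 scale.

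Atp5l, whose protein sits in the membrane part where synthase dimers are held together, lies on chromosome 9, at 44912557 to 44920742 of GRCm38 (minus strand). It measured 7.27 CPM in the lowest, 7.61 CPM in the median and 8.80 CPM in the highest negative library. In positive libraries it measured 4.40, 5.86 and 7.08 CPM. Every positive library was below every negative one, and the share of all tested genes with such a separation was not counted. The log2 fold change was −0.46 ± 0.12 with a 95% interval of −0.70 to −0.21 (means 7.78 ± 0.55 and 5.66 ± 1.05 CPM, SD, n = 7 each; adjusted p = 0.0195, and 0.00403 with the block). The call held in each of the 14 fits that left out 1 library, with adjusted p from 0.00746 to 0.0402. Without the libraries numbered 6 and 7 the log2 fold change was −0.40 (adjusted p = 0.193, and 0.0408 with the block).

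What the reads of Atp5l stand for is less sure than for Atp5b. Its exons overlap the gene Gm30934 on the opposite strand, and the strand setting of the counting was not given, so reads of the pair cannot be told apart. Of all 50-base words in its annotated exons, 8.7% also occur in genes elsewhere, spread over 641 genes. The annotated exons of Atp5l span 6443 bases, and its level per length, 1.04 CPM per kb, was the second lowest of the tested ubiquitous members. The pseudogene rows Atp5l2-ps, Atp5l-ps1 and Atp5l-ps2 held 106, 12 and 6 counts over the negative and 119, 10 and 9 counts over the positive libraries.

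Atp5s, known as factor B of the ATP synthase, was called lower with the block. It ran from 11.96 to 16.39 CPM (median 13.9 CPM) in negative and from 9.42 to 14.82 CPM (median 11.75 CPM) in positive libraries. The groups overlapped and 7 of 7 pairs were lower, with a log2 fold change of −0.25 ± 0.10 (adjusted p = 0.16, and 0.039 with the block). Atp5h, the d subunit of the peripheral stalk, was lower in 6 of 7 pairs and was not called in either fit (−0.17 ± 0.08, adjusted p = 0.199 and 0.0838). The c subunit, of which a ring turns as protons pass, is made from 3 genes that encode the same mature protein. Atp5g3 took 92.6 ± 0.8% of their reads per length in negative and 92.7 ± 0.3% in positive libraries, Atp5g1 5.53 ± 0.58% and 5.34 ± 0.36%, and Atp5g2 1.87 ± 0.30% and 1.99 ± 0.45%. None of these 3 shares differed in an exact permutation test over libraries (two-sided, adjusted p from 0.654 to 0.839 over the 8 shares tested). In CPM, Atp5g3 ran from 140.8 to 157.6 (median 145.9) in negative and from 144.4 to 165.9 (median 158.4) in positive libraries, and was not called (0.10 ± 0.05, adjusted p = 0.237). Atp5g1 had medians of 19.3 and 19.91 CPM, and Atp5g2 of 2.43 and 2.71 CPM, with overlapping groups.

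The sequences upstream of the 3 called genes are shown with the letters of known nuclear regulators of respiratory genes marked. They are from RefSeq (GRCm38.p6), 250 to 51 bases before the annotated start, 5′ to 3′ on the gene's strand. Capitals mark matches to the letters GCATGCGC (NRF1), CCGGAAG (ETS factors such as GABP), AAGATGGC (YY1), TCAAGGTCA (ERR) and CCAAT (NF-Y), searched on both strands. The last of these was added after the sequences were seen. The stretches lie at chr10:128083057-128083256 (Atp5b, plus strand), chr9:57520982-57521181 (Cox5a, plus strand) and chr9:44920793-44920992 (Atp5l, minus strand).
Atp5b: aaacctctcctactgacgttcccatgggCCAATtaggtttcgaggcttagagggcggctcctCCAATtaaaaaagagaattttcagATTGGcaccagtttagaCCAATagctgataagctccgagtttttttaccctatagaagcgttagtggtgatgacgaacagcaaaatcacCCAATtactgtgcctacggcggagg
Cox5a: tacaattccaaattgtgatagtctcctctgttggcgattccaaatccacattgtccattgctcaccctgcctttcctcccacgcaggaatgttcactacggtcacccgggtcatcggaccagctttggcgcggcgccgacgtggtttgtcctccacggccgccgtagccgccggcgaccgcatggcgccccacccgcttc
Atp5l: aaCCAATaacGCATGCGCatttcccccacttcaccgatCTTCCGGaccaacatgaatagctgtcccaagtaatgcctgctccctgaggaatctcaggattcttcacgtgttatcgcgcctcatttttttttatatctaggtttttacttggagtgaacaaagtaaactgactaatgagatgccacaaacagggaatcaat

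The Atp5b stretch held 5 matches to the CCAAT letters, 1 of them on the other strand, and none to the 4 others. Cox5a had no match to any of the 5. Atp5l held a CCAAT match at position −248 relative to the gene's start, the NRF1 letters at −240 and an ETS match on the other strand at −212. Promoter windows ran from 250 bases before to 50 after the start. Members on chromosome 18 (Ndufa2 and Atp5a1) were left out, although the windows of all genes kept that chromosome. Such a window was used for 69 of the 84 members, 75 windows in all. The NRF1 letters were in 13.3% of these windows and in 2.71% of all 32851 windows, the ETS letters in 21.3% and 8.86%, and the YY1 letters in 16% and 2.75%. The ERR letters were in 2.67% and 0.423%, and CCAAT in 42.7% and 37.4%. A match of letters describes the window and does not show binding, and a link to the direction of change was not tested.

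Isoforms of complex IV known from muscle, testis, lung or low oxygen were minor beside their ubiquitous partners in both groups. Cox6a2, the heart and muscle form of subunit 6a, was the best expressed of them and took 9.91 ± 2.81% of Cox6a reads per length in negative and 8.92 ± 2.30% in positive libraries (exact permutation p = 0.474, adjusted p = 0.654). It ran from 4.83 to 14.26 CPM (median 9.46 CPM) in negative and from 4.77 to 10.65 CPM (median 8.12 CPM) in positive libraries, overlapping throughout (log2 fold change −0.16 ± 0.24, adjusted p = 0.761). Its partner Cox6a1 had medians of 82.61 and 82.77 CPM. The log2 fold change of Cox6a1 was 0.03 ± 0.06 (adjusted p = 0.794).

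Ndufa4l2, a relative of Ndufa4 known as a target of hypoxia-inducible factors, ran from 0.555 to 1.85 CPM (median 1.06 CPM) in negative and from 1.35 to 2.46 CPM (median 1.49 CPM) in positive libraries. The groups overlapped, and it was not called (0.48 ± 0.24, adjusted p = 0.263). Its share beside Ndufa4 was 4.15 ± 1.61% in negative and 5.58 ± 1.49% in positive libraries (exact permutation p = 0.114, adjusted p = 0.291). Ndufa4 itself gave a log2 fold change of 0.02 ± 0.09. Cox7a1, the heart and muscle form of subunit 7a, ran from 0.331 to 0.581 CPM (median 0.522 CPM) in negative and from 0.205 to 1.84 CPM (median 0.704 CPM) in positive libraries. Positive libraries spread around the narrow negative range on both sides, and neither the level (0.71 ± 0.38, adjusted p = 0.30) nor the share beside Cox7a2 (1.27 ± 0.22% and 2.02 ± 1.31%, exact permutation adjusted p = 0.291) passed its test. Cox7a2 gave 0.02 ± 0.06.

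The other 5 isoforms were too rare to be tested by edgeR. Cox4i2, the form of subunit 4 known from lung and smooth muscle, had 3 counts in 2 of the 7 negative and 31 counts in 6 of the 7 positive libraries. The ratio per total count was 9.26, with a 95% counting interval of 2.89 to 47.3 that covers counting error only. Positive libraries 2 and 6 held 11 and 12 of the 31 counts. Its share of Cox4 reads per length was 0.03 ± 0.04% and 0.27 ± 0.30% (exact permutation p = 0.0198, adjusted p = 0.159), higher in 6 of 7 pairs and short of the threshold after adjustment. Of 10 tested pericyte and smooth muscle genes 7 rose. The sum of the list was 4.11 to 39.31 CPM in negative and 63.06 to 199.11 CPM in positive libraries. Of the smooth muscle genes, Myh11 rose (log2 fold change 1.57), and Acta2 (0.76) and Tagln (0.02) were not called. Mcam and Rgs5 had the highest positive means, 43.34 and 35.39 CPM. Positive 6 had a sum of 193.95 CPM with 12 Cox4i2 counts, and positive 2 had 142.63 CPM with 11. Positive 7 had the highest sum, 199.11 CPM, with 1 count. The part of these cells in the Cox4i2 counts was not tested. Cox6b2, the testis form of subunit 6b, had 29 counts in negative and 57 in positive libraries, and its share beside Cox6b1 did not pass the test (0.27 ± 0.31% and 0.50 ± 0.22%, exact permutation adjusted p = 0.291). Cox6b1 gave a log2 fold change of 0.03 ± 0.07. Cox7b2 had 2 and 1 counts, Cox8b 1 and 2, and Cox8c 0 and 1, at or below the 3 counts that a count of 0 allows over a group (0.0248 CPM in negative libraries). Cox7b, the partner of Cox7b2, gave 0.06 ± 0.06 on the log2 scale and was not called (adjusted p = 0.606).

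**Figure D4:**
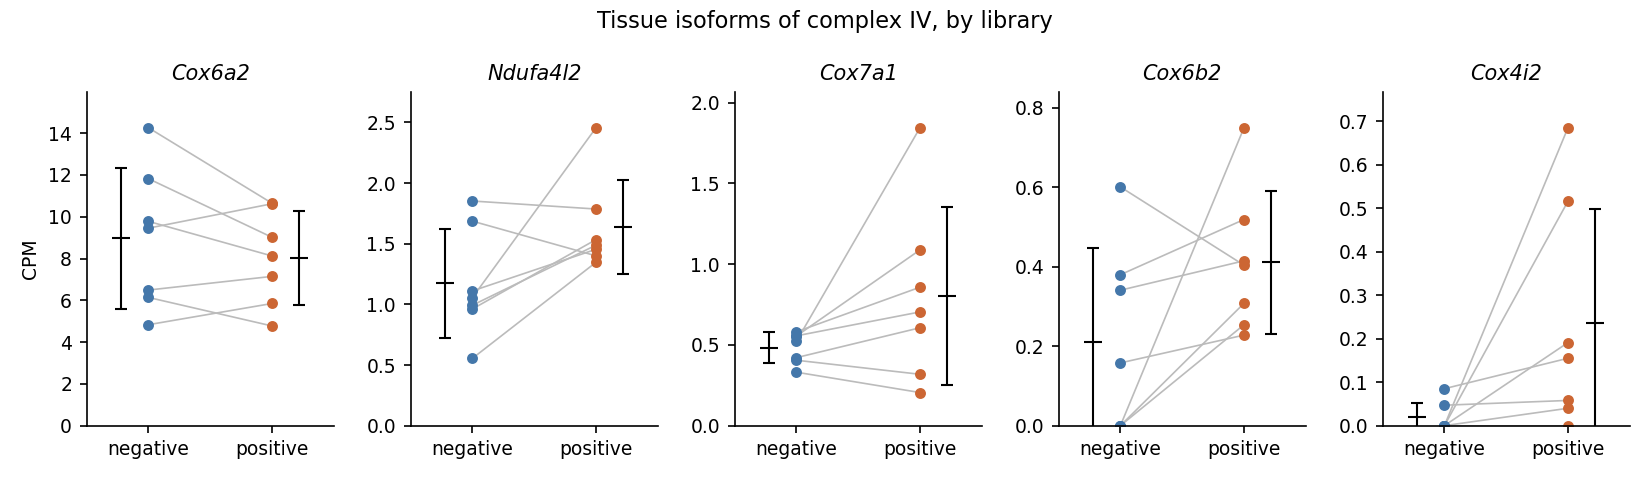
CPM of 5 complex IV isoforms in each library, negative and positive, with gray lines joining libraries of the same number and bars giving the mean ± SD, cut at 0 where they reach below it. Cox6a2 is on the largest scale, and Cox4i2 is near 0 in all negative libraries and above 0.5 CPM in 2 positive ones.

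The other genes of the pathway were counted by list. Among assembly factors, none of 15 tested genes for complex I, 4 for complex II, 6 for complex III and 4 for complex V was called. Of 23 for complex IV, 1 rose, Sco2, which delivers copper to the oxidase (log2 fold change 0.53, adjusted p = 0.0245), and with the block Coa3 also fell (−0.14). The complex I factor Dmac2, whose row carries the symbol Atp5sl, was counted with the members and not with these factors (−0.01, adjusted p = 0.955). Of 9 further nuclear genes of the chain outside the naming rule none was called, and with the block Cyc1, the cytochrome c1 of complex III, rose (0.13, adjusted p = 0.0447). Of the 13 subunits encoded by mitochondrial DNA, 3 rose (mt-Nd3 0.59, mt-Nd4l 0.87 and mt-Nd6 0.97), 6 with the block, with a list median of 0.33. These counts are 3 and 6 of 13 where 6.4% and 11.8% of all genes were called higher. In negative and positive libraries mt-Nd3 had means of 4.98 and 7.49 CPM, mt-Nd4l of 1.56 and 2.85 CPM. The most abundant, mt-Co1 (5586 and 7274 CPM) and mt-Cytb (2970 and 3502 CPM), were not called by edgeR without the block (adjusted p = 0.278 and 0.32). With the block mt-Co1 was called (adjusted p = 0.00214). Together the 13 genes took 1.32 ± 0.20% of counts in negative and 1.74 ± 0.45% in positive libraries. The ratio of the 84 nuclear members to these 13 genes was 0.404 ± 0.086 in negative and 0.333 ± 0.092 in positive libraries, and the positive library was the higher in 1 of 7 pairs. Of 15 tested regulators of mitochondrial genes, Hif1a (0.25) and Epas1 (4.57), which encode hypoxia-inducible factors, rose, and Esrra (0.21) was added with the block. These are 2 and 3 of 15, against the same 6.4% and 11.8% of all genes. Without the libraries numbered 6 and 7 and without the block, no assembly factor or mitochondrially encoded gene was called. Of the regulators 1 was then called higher, where 3.28% of all genes were. Epas1 is also known from endothelial cells, whose markers rose in the same libraries, and their part in its value was not tested.

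Levels per length differed widely between members of the same complex. Among genes of complex I they ran from 0.711 CPM per kb (Ndufb4) to 146.5 CPM per kb (Ndufa1), although the complex holds its subunits in fixed proportions. Exons of 29 of the 84 members overlap another annotated gene, and some share sequence with copies elsewhere in the genome. In 8 members (Ndufs3, Ndufs5, Ndufa12, Ndufb4, Uqcrb, Cox7c, Atp5g2 and Atp5h) at least 15% of the 50-base words of the exons also occur in genes elsewhere. These had a median level of 8.4 CPM per kb (0.71 to 19.1). The 37 members with no such word had a median of 42.3 CPM per kb (4.81 to 202.5), and the 31 in between one of 18.3 CPM per kb (1.04 to 155.1), with the tissue isoforms left out of all 3 sets. How reads that match several genes were counted was not given in the sources used here, so levels of these 8 genes, and comparisons of level between them and others, are uncertain. None of the 8 was called in either fit.

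**Figure D5:**
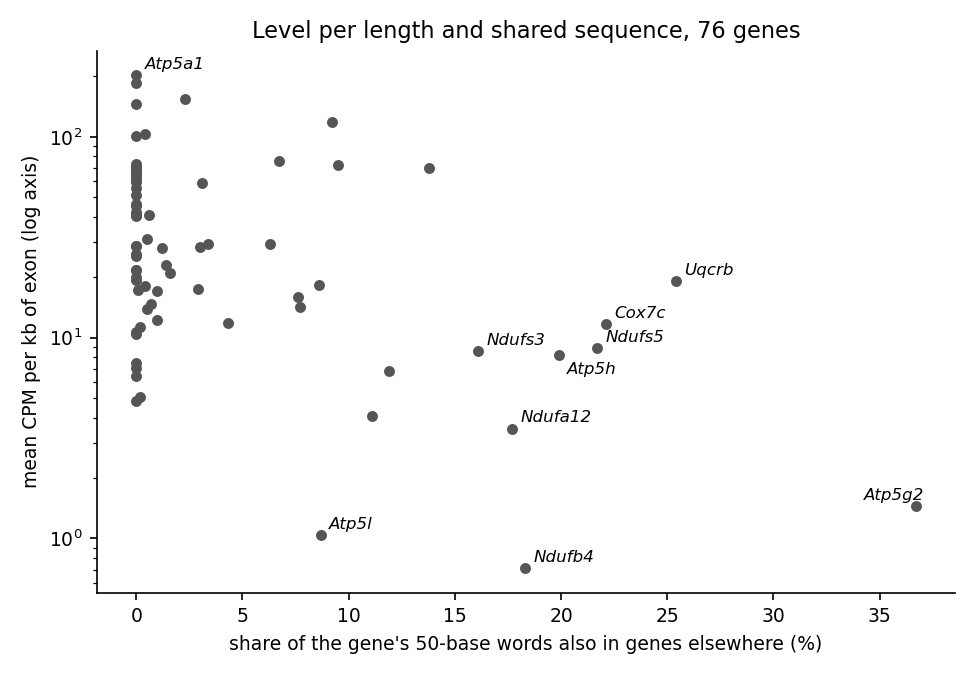
Each point is 1 of 76 members, tissue isoforms left out; the horizontal axis gives the share of 50-base words of its exons that also occur in genes elsewhere, and the vertical axis, on a log scale, its mean CPM per kb of exon over 14 libraries. The 8 genes at or above 15% lie at 0.71 to 19.1 CPM per kb, and genes with no shared word reach 202.5.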

How the data were processed

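Per the labels' protocols, polyadenylated RNA was made into libraries with a directional kit. Per the submitters' processing notes, reads were placed on GRCm38 with Subread and counted per gene with featureCounts. The deposited values are raw counts per gene. Versions, annotation, strand setting and the treatment of multiply matching reads are not given in the sources used here. All genes were fitted together with edgeR 4.0.16 in R 4.3.3: filterByExpr (16350 genes kept), TMM factors (0.969 to 1.03), robust quasi-likelihood F-test on group, Benjamini-Hochberg over all genes, threshold 0.05. CPM used TMM-scaled totals, and CPM per kb divided by the merged exon length of GENCODE M21 (GRCm38). Isoform shares were compared by exact permutation over 14 libraries (3432 arrangements, smallest p 0.000583). Scripts were tested on simulated data.

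Replicate numbers were taken to pair the libraries: same-numbered libraries deviated from their group means together in 7 of 7 pairs (r = 0.2 to 0.54, median −0.13 for other pairs), although negative 3 correlated best with positive 7 and negative 7 with positive 6. This comes from the titles and these correlations, since no label ties a number to particular animals. Alternatives were the block, DESeq2 1.42.0, other scalings, no filter and libraries left out. Values were given for called members, those called with the block, the highest per length in each complex, complex II and the isoform sets; other members named were singled out after their values were seen. The members and lists were chosen with earlier results of these data known.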

Additional observations from a re-analysis of the deposited data

Results flagged for a closer look

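In 5 of the 86 groups of 7 libraries examined, 1 library stood apart from the others by Dixon's test, and chance flags about 1 group in 20. Ndufa1 in positive library 1 was at 78.03 CPM, with the other positive libraries at 55.19 to 63.37 CPM. Sdhd in negative library 5 was at 84.58 CPM, with the others at 69.69 to 75.47 CPM. Ndufa4l2 in positive library 6 was at 2.456 CPM, with the others at 1.347 to 1.786 CPM; this library also had the highest macrophage and endothelial sums, whose part was not tested. For Cox7b2 (0.05131 CPM in positive library 4) and Cox8b (0.05282 CPM in negative library 6) the others of the group were at 0, and these values are those of 1 count in a library.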

How the results depend on the processing

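The number of members called higher was 2 and lower 1, as with DESeq2, other scaling factors or library totals. With the replicate block, 5 were higher and 3 lower, and the block ended none of the 3 calls. No isoform share passed when compared within pairs. However, 7 pairs allow too few sign arrangements for 1 share alone to pass after adjustment over 8 shares. That comparison therefore cannot decide whether a share differed. Without a filter on low counts 0 were higher (3 at an unadjusted p below 0.05 in edgeR). Without the libraries numbered 6 and 7 there were 0 higher and 0 lower (2 and 2 unadjusted), and in the block without these libraries, added after seeing the data, 1 higher. DESeq2 was run on all libraries only. Leaving out single libraries gave 0 to 2 higher and 1 to 1 lower. The difference in the Cox4i2 share ranged from 0.153 to 0.287 percentage points over the fits leaving out 1 library, and passed its test only without positive library 4 (exact permutation adjusted p = 0.0233). The difference in the Atp5g3 share ranged from −0.134 to 0.262, below 0 without negative 6 (−0.035), negative 7 (−0.134) or positive 1 (−0.0224), and was −0.314 without the libraries numbered 6 and 7. The cause was not tested. Cox7b2, Cox8b and Cox8c had at most 3 counts in all, too few to compare groups.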
